A study of Mus musculus with 24 samples.

Results

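The step examined was the last one sampled in a course of directed differentiation towards extraembryonic endoderm (XEN), from day 3 to day 4, in wild-type (WT) cells. Its 4 libraries, 2 per day, were taken out of the 24 samples of the series by the day and genotype in their labels. All 4 came from E14 mouse embryonic stem cells, a line of 129/Ola background, and are labelled wild type. Every library of the course was grown in RPMI 1640 medium with 15% serum, 0.1 µM all-trans retinoic acid and 10 ng/mL activin A on gelatin, in a protocol of 5 days. The 8 libraries of AGO2 knockout (KO) E14 cells sampled on days 1 to 4, and the WT libraries of days 1 and 2, were used as comparisons. AGO2 is an Argonaute protein, loaded with microRNAs and able to cleave RNA. Polyadenylated RNA was sequenced, and levels are given as CPM, read counts scaled to the library's effective size. The question is which transcripts still changed on the last day of the course. Whether the pair of libraries of a day came from different cultures is not said in the labels, and p-values then reflect only library spread that may be technical.

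Primitive endoderm is the layer that separates from the epiblast before implantation. GATA6 and GATA4 act early in it, followed by SOX17 and SOX7, and it gives rise to visceral endoderm, a polarized epithelium that takes up maternal proteins through megalin and cubilin and digests them in lysosomes, and to parietal endoderm, which secretes the thick basement membrane named after Reichert. XEN cells are the cultured counterpart of this lineage. Retinoic acid with activin drives embryonic stem cells towards it, while retinoic acid alone also activates anterior Hox genes and germline genes such as Stra8.

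Total counts were 10601574 and 13933318 at day 3 and 12077796 and 14157310 at day 4. WT day 3 replicate 2 stood apart from the other 7 WT libraries of the course. Targets of the amino acid response were high in it, with Slc7a11, the cystine transporter, at 52.1 CPM against 0.449 to 1.06 CPM in the others. Asns, asparagine synthetase, stood at 804 against 159 to 537 CPM, and Chac1 at 103 against 5.22 to 36.6 CPM. The Y-linked genes were low in it, with Ddx3y at 10.1 against 45.3 to 71.7 CPM and Eif2s3y at 10.9 against 55.3 to 67.9 CPM. Its share of mitochondrially encoded counts was 2.53%, against 1.48% to 2.00% in the others. Of the 17694 genes tested, 1066 differed by more than 2-fold in CPM + 1 between the day 3 libraries. Between the day 4 libraries 290 did so, and between those of days 1 and 2 it was 45 and 44. The genes of this paragraph were chosen after their values were seen, and the source of the difference was not tested.

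**Figure D1:**
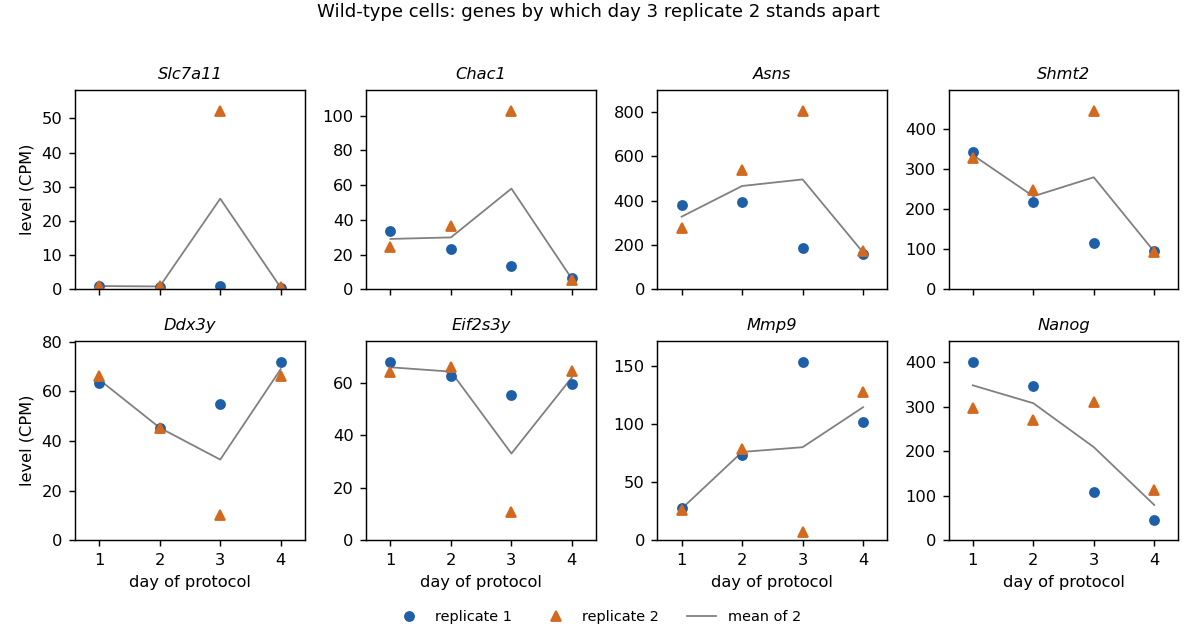
Level in CPM (vertical axes, each from 0) by day of the protocol for 8 genes in the 8 WT libraries, with circles for replicate 1, triangles for replicate 2 and a line through the mean of both. In each panel the day 3 triangle lies apart from the day 3 circle: Slc7a11 was at 52.1 against 0.924 CPM and Mmp9, a matrix protease, at 7.1 against 153 CPM.

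From day 3 to day 4, 216 of 17694 genes tested were called at an adjusted p below 0.05 (1.22%), 141 of them higher at day 4 (0.797% of genes tested) and 75 lower (0.424%). The rises ranged from 0.56 to 3.32 on the log2 scale with a median of 1.20, and the falls had a median of -1.33, the shallowest being -0.64. Fewer genes passed than in the earlier steps of the same cells. From day 1 to day 2 there were 3761 calls (21.3%), and from day 2 to day 3, which shares the day 3 libraries, 2360 (13.3%). The libraries of days 1 and 2 were deeper, at 17296881 to 24446291 counts, against 10601574 to 14157310 at days 3 and 4. The SD of the log2 difference between replicates was 0.254 at days 1 and 2, 0.519 at day 3 and 0.346 at day 4. Depth and spread thus differed between the steps, and the numbers of calls do not show that fewer genes changed in the last one. At an unadjusted p below 0.05 the last step held 3479 genes, and its smallest adjusted p was 0.0158. The level in both libraries of one day lay outside those of the other for 8375 genes (47.3% of genes tested), including each of the 216.

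The number of calls rested on single libraries. Without day 3 replicate 2 and without day 4 replicate 1 no gene was called (1824 and 2088 at an unadjusted p below 0.05), so each call given below is lost in those settings. Without day 3 replicate 1 there were 2272 calls, and without day 4 replicate 2 there were 123. Fitting the 4 libraries alone gave 0 calls (2022 unadjusted), the 8 WT libraries alone gave 5, and requiring more than a 2-fold change gave 0 (475 unadjusted). DESeq2 called 930 genes, among them 210 of the 216, and a fit with no filter on low counts called 1833. DESeq2 size factors gave 217 calls. The days did not overlap for any of the 216 genes, so leaving out a library could not turn their signs, and an unturned sign is no measure of stability.

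**Figure D2:**
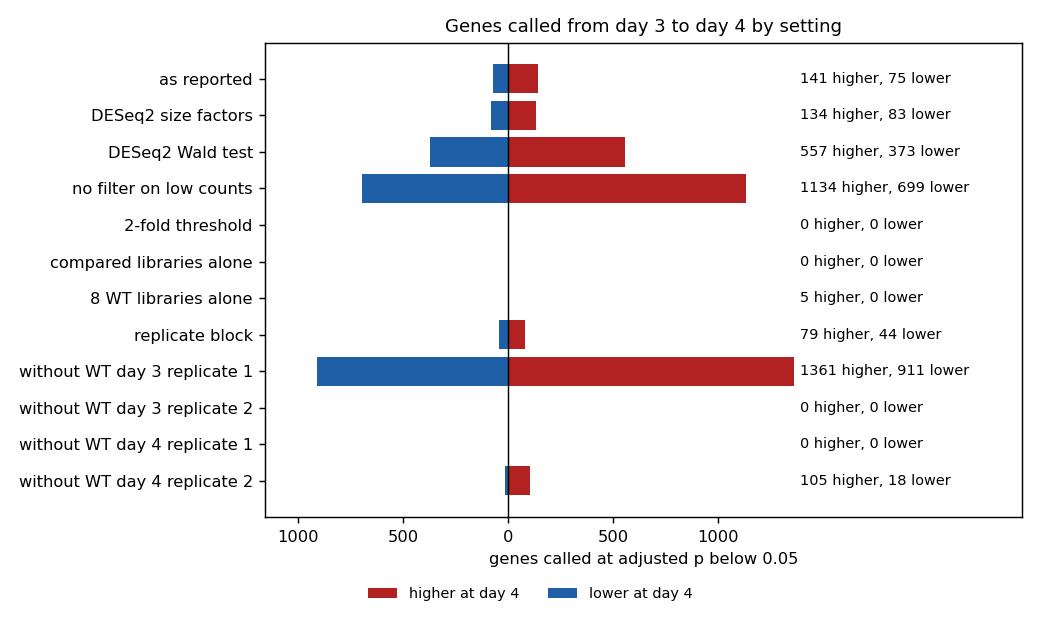
Number of genes called at an adjusted p below 0.05 (horizontal axis), higher at day 4 to the right and lower to the left, as reported (141 and 75) and under 11 alternatives. The bars vanish without day 3 replicate 2 and without day 4 replicate 1, and are longest without day 3 replicate 1 (1361 and 911).

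Among regulators of primitive endoderm, 4 of 12 rose and none fell, where 0.797% and 0.424% of all genes tested did. Their median log2 change was 0.82 against 0.01 over all genes tested. Gata4 (chr14:63198922-63271692), a zinc finger factor of the lineage, was at 85.2 and 74.6 CPM on day 3 against 209.8 and 173 CPM on day 4, a change of 1.26 ± 0.21 (SE, adjusted p = 0.0182). Dab2, an adaptor that loads receptors into clathrin coats and marks XEN cells, lies at chr15:6299788-6440712 in GRCm38 and was at 519 and 361 CPM on day 3 against 1040.5 and 1009 CPM on day 4 (log2 change 1.22 ± 0.22 SE, adjusted p = 0.024). Both were higher in both day 4 libraries than in either of day 3, as was Cited1, a transcriptional coactivator (26.98 and 21.6 CPM, then 81.1 and 52.03 CPM, log2 change 1.46 ± 0.29 SE, adjusted p = 0.035). In bulk RNA a larger share of such cells and more RNA per cell cannot be told apart.

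The other core factors did not pass the test. Gata6, which starts the lineage, was at 53.3 and 58.6 CPM on day 3 against 104 and 84.4 CPM on day 4 (log2 change 0.75 ± 0.39 SE, adjusted p = 0.308). Sox17 was at 11.2 and 20.6 CPM on day 3 against 24.4 and 25.4 CPM on day 4 (log2 change 0.64 ± 0.36 SE, adjusted p = 0.34). Its relative Sox7 was at 37.97 and 40.4 CPM on day 3 against 57.8 and 67.1 CPM on day 4 (log2 change 0.67 ± 0.25 SE, adjusted p = 0.159). Pdgfra, the receptor by which primitive endoderm is often sorted, was at 38.9 and 64.05 CPM on day 3 against 74.2 and 91.4 CPM on day 4 (log2 change 0.68 ± 0.34 SE, adjusted p = 0.286). The lowest day 4 library of these 4 genes was above the highest of day 3 in each case. In all, 10 of the 12 genes had higher levels at day 4 without overlap, against 25.2% of all genes tested. Gata5 and Sall4 had changes of -0.46 and -0.04, neither past the test.

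**Figure D3:**
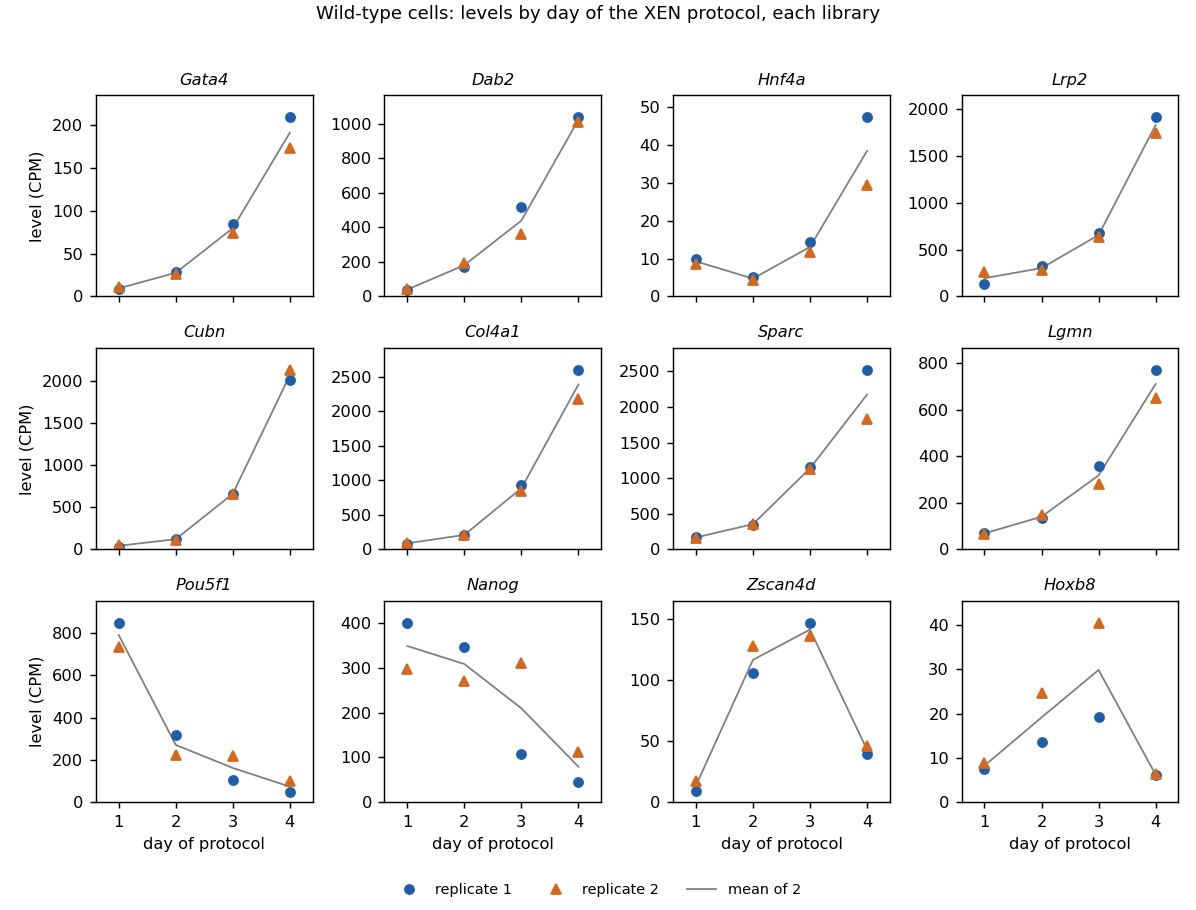
Level in CPM (vertical axes, each from 0) by day of the protocol for 12 genes in the 8 WT libraries, with circles for replicate 1, triangles for replicate 2 and a line through the mean of both. The endoderm genes of the upper rows stand highest at day 4 (Gata4 209.8 and 173 CPM), whereas Zscan4d stood highest on day 3 by the mean of both libraries (147 and 136 CPM) and was down to 39.6 and 46.5 CPM on day 4.

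Genes of visceral endoderm and of yolk sac absorption had the highest median of the 38 lists, 1.48. Of 23 tested, 6 rose (0.797% of all genes tested did) and none fell. The change was positive for 21 and negative for 2, the lowest being -0.82. Without overlap 16 were higher and 2 lower at day 4, against 25.2% and 22.1% of all genes tested. Lrp2 (megalin, chr2:69424340-69586065), the large endocytic receptor, was at 677 and 632 CPM on day 3 against 1913 and 1739 CPM on day 4 (log2 change 1.48 ± 0.26 SE, adjusted p = 0.0239). Its partner Cubn (cubilin), named after its value was seen, was at 666 and 659.8 CPM on day 3 against 2011 and 2138 CPM on day 4 (log2 change 1.65 ± 0.32 SE, adjusted p = 0.0322). Both receptors were about as high in one library of a day as in the other. Their coreceptor Amn, amnionless, did not pass the test at 31.2 and 34.2 CPM on day 3 against 66.9 and 58.3 CPM on day 4 (log2 change 0.94 ± 0.28 SE, adjusted p = 0.0991).

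Clic6, a chloride intracellular channel protein, rose to 318 and 187 CPM from 78.7 and 62.95 CPM (log2 change 1.83 ± 0.26 SE, adjusted p = 0.0158), and the tight junction protein Cldn6 to 388 and 264 from 173 and 161 CPM (log2 change 0.97 ± 0.16 SE, adjusted p = 0.0182). Slc39a8, a zinc and manganese importer, was at 14.2 and 14.95 CPM on day 3 against 41.4 and 29.3 CPM on day 4 (log2 change 1.28 ± 0.24 SE, adjusted p = 0.0272). Hnf4a, the nuclear receptor that governs visceral endoderm secretory genes and was named after its value was seen, was at 14.5 and 11.7 CPM on day 3 against 47.4 and 29.5 CPM on day 4 (log2 change 1.56 ± 0.30 SE, adjusted p = 0.0309). In each of these 4 the days did not overlap. For secreted products the libraries of a day lay further apart. Apob was at 78.2 and 22.4 CPM on day 3 against 314 and 169.6 CPM on day 4 (log2 change 2.27 ± 0.58 SE, adjusted p = 0.0768). Transthyretin, Ttr, was at 7.76 and 3.82 CPM on day 3 against 48.2 and 8.59 CPM on day 4 (log2 change 2.30 ± 0.67 SE, adjusted p = 0.105), and alpha-fetoprotein, Afp, at 4.99 and 1.23 CPM on day 3 against 20.4 and 4.37 CPM on day 4 (log2 change 2.02 ± 0.72 SE, adjusted p = 0.151). None of these 3 passed, and day 4 replicate 1 was the highest library for each, by a wide margin for Ttr and Afp. Without that library the list's median was 0.84.

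Genes of the parietal endoderm basement membrane were all positive, 23 of 23 (51.4% of all genes tested were), with a median of 0.83. Of them 5 rose (0.797% of all genes tested did). The collagen IV chains Col4a1 and Col4a2, which lie head to head on chromosome 8, both rose. Col4a1 was at 927 and 846 CPM on day 3 against 2599 and 2175 CPM on day 4 (log2 change 1.43 ± 0.28 SE, adjusted p = 0.0322), and Col4a2 at 531 and 462 CPM on day 3 against 1366 and 1142 CPM on day 4 (log2 change 1.34 ± 0.24 SE, adjusted p = 0.0231). The annotated genes overlap on opposite strands, so some reads may be shared. The largest exon overlap of Col4a2 with another coding or long noncoding gene was 43 bp, of 6619 bp of exon. Lamb1, the laminin beta 1 chain, was at 873 and 807 CPM on day 3 against 1695 and 1538 CPM on day 4 (log2 change 0.94 ± 0.15 SE, adjusted p = 0.0158). Sparc, a collagen-binding matrix protein abundant in parietal endoderm, was at 1150.4 and 1125 CPM on day 3 against 2519.8 and 1826 CPM on day 4 (log2 change 0.93 ± 0.20 SE, adjusted p = 0.047). Perlecan, Hspg2, was at 1002 and 751 CPM on day 3 against 1873 and 1967 CPM on day 4 (log2 change 1.13 ± 0.26 SE, adjusted p = 0.0481). Hspg2 was named after its value was seen. The laminin partners Lamc1 and Lama1 stopped short of the threshold, with changes of 0.85 ± 0.21 (SE, adjusted p = 0.0616) and 1.11 ± 0.29 (SE, adjusted p = 0.075), and so did Nid2 (log2 change 0.71 ± 0.18 SE, adjusted p = 0.0706). The simple keratins Krt8 and Krt18 were low in day 3 replicate 2 (1212 and 405 CPM for Krt8 at day 3, 1486 and 991 CPM at day 4) and did not pass (0.62 ± 0.42 and 0.50 ± 0.42).

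**Figure D4:**
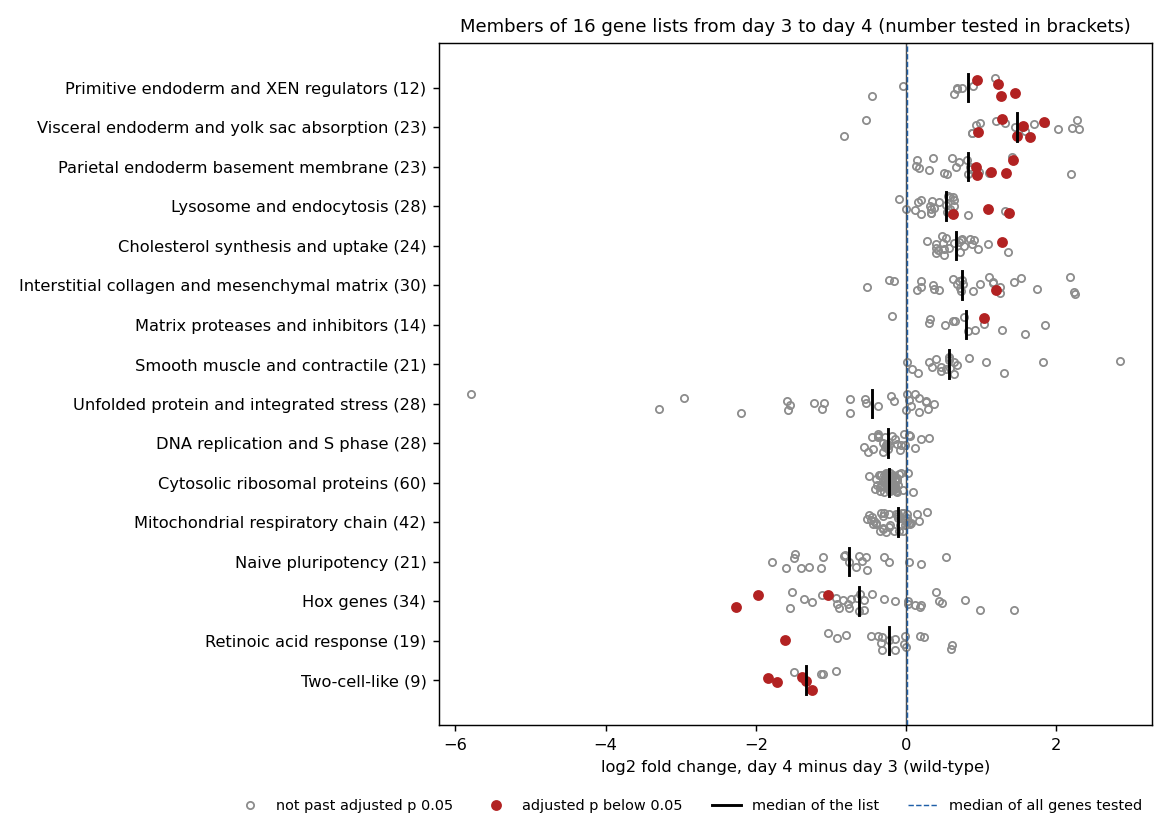
Log2 change from day 3 to day 4 (horizontal axis) of the members of 16 gene lists (rows, number tested in brackets), with filled red points for adjusted p below 0.05, open points for the rest and a black bar at each list's median. Endoderm, lysosome, cholesterol and matrix lists lie to the right of 0 (visceral endoderm median 1.48), and two-cell-like genes lie to the left (median -1.33).

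Lysosomal and endocytic genes were positive in 27 of 28 cases (51.4% of all genes tested were) with a median of 0.54. Of them 22 had higher levels at day 4 without overlap (25.2% of all genes tested did), but only 3 rose (0.797% of all genes tested did). Without day 4 replicate 1 the median was 0.34. Atp6v0a1, a membrane subunit of the proton pump that acidifies lysosomes, was at 98.3 and 72.8 CPM on day 3 against 201 and 164 CPM on day 4 (log2 change 1.09 ± 0.16 SE, adjusted p = 0.0158). Ctsc, cathepsin C, was at 81.02 and 62.3 CPM on day 3 against 242 and 129 CPM on day 4 (log2 change 1.37 ± 0.25 SE, adjusted p = 0.024). Outside the list, Lgmn, the lysosomal cysteine protease legumain (chr12:102394084-102439813), had the smallest p of all genes tested, at 357 and 280.2 CPM on day 3 against 772 and 650.5 CPM on day 4 (log2 change 1.16 ± 0.15 SE, adjusted p = 0.0158). Igf2r, which carries mannose 6-phosphate tagged enzymes to lysosomes and is expressed from the maternal allele, was at 267 and 229 CPM on day 3 against 629 and 398 CPM on day 4 (log2 change 1.05 ± 0.24 SE, adjusted p = 0.0481). Without day 4 replicate 1 the changes of Ctsc and Igf2r were 0.86 and 0.69. Further risen genes of this kind, picked after their values were seen, were the sialidase Neu1 (0.71 ± 0.15), arylsulfatase Arsa (1.09 ± 0.22), the alpha-mannosidase Man2b2 (0.96 ± 0.19), the proton pump accessory subunit Atp6ap1 (0.72 ± 0.14) and the sialic acid exporter Slc17a5 (0.81 ± 0.18). Cathepsins L and B (Ctsl and Ctsb) did not pass, with changes of 0.83 ± 0.19 (SE, adjusted p = 0.0513) and 0.64 ± 0.16 (SE, adjusted p = 0.069).

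Many lysosomal genes carry the letters GTCACGTG near their start, an E-box with flanking bases that is known as a site for the factor TFEB. Of the windows of 250 bases before annotated starts in the RefSeq table (GRCm38.p6), where 108 of the 141 risen genes were found, 8 of 136 windows of risen genes held GTCACGTG on either strand (5.88%), against 3.11% of 15293 windows of genes tested and 1.85% of the 32851 windows in the table. The 8 genes are Arsa, Igf2r, Insig1, Irs4, Lgmn, Slc16a1, Trim25 and Tulp4. In the lysosome list 6 of 26 windows held it, namely Ctsa, Ctsd, Gla, Glb1, Lamp1 and Mcoln1, none of which was called. The windows of the lysosomal enzyme and of the sorting receptor that rose are shown because both hold the letters, given in capitals, 5′ to 3′ on the gene's strand. The Lgmn window (minus strand, chr12:102439093-102439342) precedes the inner of its 2 RefSeq starts, and the Igf2r window is at chr17:12769707-12769956 on the minus strand.
Lgmn: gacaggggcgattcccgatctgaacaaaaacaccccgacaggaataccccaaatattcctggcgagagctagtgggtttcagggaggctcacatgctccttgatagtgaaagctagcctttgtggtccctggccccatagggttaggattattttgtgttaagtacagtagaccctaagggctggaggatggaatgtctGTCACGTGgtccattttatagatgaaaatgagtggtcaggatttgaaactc
Igf2r: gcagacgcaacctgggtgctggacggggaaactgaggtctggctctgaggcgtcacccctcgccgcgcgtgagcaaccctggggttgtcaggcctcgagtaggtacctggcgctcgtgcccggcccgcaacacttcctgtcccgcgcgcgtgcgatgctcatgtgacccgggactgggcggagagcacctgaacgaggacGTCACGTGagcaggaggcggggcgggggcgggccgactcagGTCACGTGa
A match of letters is a description and does not show that a factor binds there. Igf2r holds the letters at 2 places and Lgmn at 1.

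Cholesterol genes had changes of one sign: all 24 tested were positive (51.4% of all genes tested were), with a median of 0.67. Without overlap 21 were higher (25.2% of all genes tested were), but Insig1 alone passed. At an unadjusted p below 0.05 there were 19 of the 24, against 3479 of all 17694 genes tested. Insig1, the membrane protein that retains the sterol sensor in the endoplasmic reticulum, was at 67.5 and 46.6 CPM on day 3 against 126 and 151 CPM on day 4 (log2 change 1.28 ± 0.26 SE, adjusted p = 0.0343). Day 3 replicate 2 was the lowest of the 4 libraries for it. Summed over the list, the libraries held 2659.6 and 1643 CPM on day 3 and then 3309.5 and 3698 CPM at day 4, and the median was 0.41 without day 3 replicate 2 and 1.03 without day 3 replicate 1. The median of the same list from day 3 to day 4 in KO cells was -0.12, but no member was called for a difference between the genotypes' steps. Lipid transport genes that rose, named after their values were seen, were Mttp, which loads lipid onto apolipoprotein B (59.2 and 37.1 CPM, then 206 and 106 CPM, log2 change 1.70 ± 0.27 SE, adjusted p = 0.0158), and the cholesterol esterifying enzyme Soat2 (log2 change 1.34 ± 0.26 SE, adjusted p = 0.0322).

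Interstitial collagens and other mesenchymal matrix genes had a median of 0.75, with 27 of 30 positive (51.4% of all genes tested were). Only Tgfbi, an adhesion protein induced by TGF-beta, passed (40.4 and 37.7 CPM, then 106 and 73.1 CPM, log2 change 1.20 ± 0.17 SE, adjusted p = 0.0158). Col1a1 was at 181 and 59.95 CPM on day 3 against 729 and 366 CPM on day 4 (log2 change 2.19 ± 0.60 SE, adjusted p = 0.0934). Col3a1 was at 76.8 and 62.00 CPM on day 3 against 464 and 189.9 CPM on day 4 (log2 change 2.24 ± 0.68 SE, adjusted p = 0.129). For both the libraries of a day lay far apart, and day 4 replicate 1 was the highest. Without day 3 replicate 1 the list's median was 1.44. Serpine2, a protease inhibitor, was the only called gene of 14 matrix proteases and inhibitors (log2 change 1.03 ± 0.19 SE, adjusted p = 0.0272). Among 21 contractile genes, all positive (51.4% of all genes tested were) with a median of 0.58, none passed. Acta2, smooth muscle actin, was at 894 and 333 CPM on day 3 against 2386 and 651 CPM on day 4, and the list's median was -0.01 without day 4 replicate 1. The summed level of 6 fibroblast markers was 458 and 269 CPM on day 3 and then 1532 and 753 CPM at day 4, and its part in the other results was not tested.

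Among called genes that reached a mean of 5 CPM, the largest rises came from genes at or below 33.1 CPM on day 3. Rfx6 (chr10:51677756-51730432), a winged helix factor of gut and pancreatic endoderm, was at 0.831 and 0.546 CPM on day 3 against 8.17 and 5.44 CPM on day 4, the steepest rise among named genes (log2 change 3.32 ± 0.46 SE, adjusted p = 0.0158). Pappa, a protease that frees insulin-like growth factors from their binding proteins, was at 1.57 and 0.546 CPM on day 3 against 9.34 and 5.51 CPM on day 4 (log2 change 2.86 ± 0.45 SE, adjusted p = 0.0158). The matrix protease Adamts12 was at 4.9 and 1.16 CPM on day 3 against 25.4 and 17.1 CPM on day 4 (log2 change 2.85 ± 0.56 SE, adjusted p = 0.0322). Irs4, an adaptor of insulin receptor signalling, was at 33.1 and 10.7 CPM on day 3 against 172 and 81.02 CPM on day 4 (log2 change 2.54 ± 0.45 SE, adjusted p = 0.0274). Day 3 replicate 2 was the lowest library in each of these 4. Prss12, a secreted serine protease, was at 7.95 and 3.62 CPM on day 3 against 53.4 and 14.2 CPM on day 4, with a change of 2.56 ± 0.54 that was 1.32 without day 4 replicate 1. Changes were 2.42 ± 0.38 for Syne3, a nuclear envelope protein, 2.36 ± 0.41 for Thsd7a and 2.22 ± 0.39 for Abcc2, an organic anion exporter of apical membranes. The mesenchymal homeobox gene Prrx1 had a change of 2.21 ± 0.46, the axon guidance receptor Robo2 2.18 ± 0.48, the hexokinase domain gene Hkdc1 2.16 ± 0.35 and the calcium release channel Ryr2 2.15 ± 0.34.

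Transporters and trafficking genes with the smallest p included Slc40a1, the iron exporter ferroportin, at 46.2 and 43.02 CPM on day 3 against 109.6 and 83.1 CPM on day 4 (log2 change 1.11 ± 0.18 SE, adjusted p = 0.0158). Myo6, the myosin that moves endocytic vesicles inwards, was at 77.1 and 77.3 CPM on day 3 against 227 and 186 CPM on day 4 (log2 change 1.42 ± 0.21 SE, adjusted p = 0.0158). The 2 libraries of each day lay close together for both genes. In the signalling lists single members rose. Sfrp1, a secreted WNT inhibitor, was the one of 31 WNT genes, at 48.2 and 39.3 CPM on day 3 against 135 and 63.9 CPM on day 4 (log2 change 1.18 ± 0.25 SE, adjusted p = 0.0417). Day 4 replicate 1 held most of this rise, and without it the change was 0.56. Fgfr3 was the one of 20 FGF genes (log2 change 1.07 ± 0.24 SE, adjusted p = 0.0481). Tgfbr3, a TGF-beta coreceptor, rose among 24 TGF-beta genes (log2 change 1.45 ± 0.31 SE, adjusted p = 0.0421), and none of 19 BMP genes was called. Cldn7 (log2 change 1.57 ± 0.33 SE, adjusted p = 0.0416) joined Cldn6 among 19 epithelial genes. Flt1, a receptor for vascular endothelial growth factor, was the called member of 9 endothelial and blood genes tested (log2 change 1.73 ± 0.34 SE, adjusted p = 0.0322). Dnmt3b, a de novo DNA methyltransferase, was the only called gene of both the formative epiblast list and the DNA methylation list, at 201 and 141 CPM on day 3 against 315 and 295 CPM on day 4 (log2 change 0.84 ± 0.19 SE, adjusted p = 0.0496).

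Pluripotency factors were lower at day 4 on average, but none of 21 passed the test. Pou5f1 (OCT4) was at 108 and 217 CPM on day 3 against 46.96 and 102 CPM on day 4 (log2 change -1.13 ± 0.63 SE, adjusted p = 0.342). Nanog was at 108 and 310.3 CPM on day 3 against 46.1 and 113 CPM on day 4 (log2 change -1.40 ± 0.74 SE, adjusted p = 0.32). Sox2 was at 36.2 and 107 CPM on day 3 against 20.6 and 30.4 CPM on day 4 (log2 change -1.49 ± 0.61 SE, adjusted p = 0.213). For each of these 3 genes day 3 replicate 2 held the highest level of the 4 libraries, and the higher day 4 library of Nanog was above the lower one of day 3. Esrrb, an orphan nuclear receptor of the naive state, was at 44.3 and 132 CPM on day 3 against 21.8 and 41.7 CPM on day 4 (log2 change -1.47 ± 0.67 SE, adjusted p = 0.253). The list's median was -0.75, and without day 3 replicate 2 it was -0.29. Of its 21 genes 18 were negative, as were 8581 of all 17694 genes tested. Dppa2, an activator of early embryonic genes that is not in the list and was named after its value was seen, fell, from 136 and 169 to 60.6 and 91.1 CPM (log2 change -1.01 ± 0.21 SE, adjusted p = 0.039).

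The two-cell-like state gave the group with the most fallen members of the 38 lists. This state, in which a few stem cells switch on transcripts of the cleavage embryo, is marked by the Zscan4 cluster and the Usp17l deubiquitinase genes. All 9 genes tested were lower at day 4 without overlap, against 22.1% of all genes tested, and 5 fell (0.424% of all genes tested did). Zscan4d (chr7:11161374-11166159) was at 147 and 136 CPM on day 3 against 39.6 and 46.5 CPM on day 4 (log2 change -1.72 ± 0.25 SE, adjusted p = 0.0158). Zscan4c was at 145 and 104 CPM on day 3 against 43.7 and 55.3 CPM on day 4 (log2 change -1.33 ± 0.22 SE, adjusted p = 0.0182), and Zscan4f at 114 and 88.1 CPM on day 3 against 40.1 and 44.4 CPM on day 4 (log2 change -1.25 ± 0.24 SE, adjusted p = 0.0288). Usp17la was at 37.4 and 37.9 CPM on day 3 against 9.79 and 11.3 CPM on day 4 (log2 change -1.83 ± 0.28 SE, adjusted p = 0.0158). Day 3 replicate 2 was not the highest library for any of the Zscan4 genes. Usp17lb, outside the list, had a steeper fall at 40.00 and 55.3 CPM on day 3 against 10.7 and 8.8 CPM on day 4 (log2 change -2.29 ± 0.38 SE, adjusted p = 0.0182). Usp17lc, named after its value was seen, fell by 1.38 ± 0.32 on the log2 scale, at the edge of the threshold. The list's median was -1.33, and between -1.08 and -1.54 when single libraries were left out. Of the 75 fallen genes, 13 carry predicted or clone names.

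The cluster members are near-identical copies, so their reads may be split between them and the single values are uncertain. The windows before the starts of Zscan4c (plus strand, chr7:11005495-11005744) and Zscan4d (minus strand, chr7:11166160-11166398) are shown to give the likeness of 2 members that fell, with the letters TGATAG in capitals.
Zscan4c: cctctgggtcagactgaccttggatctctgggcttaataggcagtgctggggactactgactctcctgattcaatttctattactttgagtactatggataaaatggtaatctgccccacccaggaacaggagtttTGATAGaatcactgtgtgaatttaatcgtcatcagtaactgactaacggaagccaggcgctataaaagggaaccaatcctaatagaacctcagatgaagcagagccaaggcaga
Zscan4d: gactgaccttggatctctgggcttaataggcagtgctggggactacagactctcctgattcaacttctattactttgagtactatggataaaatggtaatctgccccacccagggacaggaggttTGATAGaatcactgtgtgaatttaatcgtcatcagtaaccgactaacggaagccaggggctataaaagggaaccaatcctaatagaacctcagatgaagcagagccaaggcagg
Aligned without a gap over 238 bases, the windows agreed at 232 and differed at 6. TGATAG is one form of the letters bound by GATA factors. The core GATA with A or T before it and A or G after it, on either strand, was in 15 of 64 windows of fallen genes (23.4%), in 23 of 136 windows of risen genes (16.9%) and in 17.6% of the windows of all genes tested. The risen genes' share was thus near that of all genes tested. Among endoderm regulators only 1 of 8 windows held it, that of Dab2.

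Some of the 75 fallen genes are known from the germline. They were picked after their values were seen, and since no germline list was fixed, nothing is said of germline genes as a group. Stra8, the retinoic acid target that opens meiosis, was at 225 and 392 CPM on day 3 against 60.3 and 141 CPM on day 4 (log2 change -1.62 ± 0.35 SE, adjusted p = 0.0476). Dazl, a germ cell RNA-binding protein, was at 114 and 195 CPM on day 3 against 59.1 and 73.4 CPM on day 4 (log2 change -1.22 ± 0.25 SE, adjusted p = 0.0389). Mael, a factor of the piRNA pathway, was at 37.1 and 54.8 CPM on day 3 against 21.2 and 17.6 CPM on day 4 (log2 change -1.25 ± 0.22 SE, adjusted p = 0.0204). Sycp1 of the synaptonemal complex (-0.96), Tex11 (-1.18), Topaz1 (-1.50), Sohlh2 (-0.64), D1Pas1 (-1.45) and Slc25a31 (-0.97) also fell. Day 3 replicate 2 was the highest library for all 9, and without it the changes of Stra8 and Dazl were -1.15 and -0.77, and that of D1Pas1 was -0.86, all uncalled.

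Hox genes of the B cluster were among the fallen genes. Of 34 Hox genes tested 3 fell (0.424% of all genes tested did) and none rose. Without overlap 20 were lower (22.1% of all genes tested were), and the median was -0.62. Hoxb8 (chr11:96281905-96285315) was at 19.2 and 40.5 CPM on day 3 against 6.11 and 6.37 CPM on day 4 (log2 change -2.26 ± 0.38 SE, adjusted p = 0.0182). Hoxb6 was at 13.9 and 23.4 CPM on day 3 against 5.66 and 3.94 CPM on day 4 (log2 change -1.97 ± 0.41 SE, adjusted p = 0.0389), and Hoxb2 at 47.6 and 64.05 CPM on day 3 against 27.2 and 27.1 CPM on day 4 (log2 change -1.04 ± 0.24 SE, adjusted p = 0.0496). The antisense gene Hoxb5os was at 7.21 and 23.9 CPM on day 3 against 3.05 and 2.58 CPM on day 4 (log2 change -2.48 ± 0.53 SE, adjusted p = 0.0421). It overlaps Hoxb5 on the other strand, and without a stated strand setting the reads of both cannot be told apart. Day 3 replicate 2 was the highest library for all 4, and without it the change of Hoxb5os was -1.36 and that of Hoxb8 -1.62. In KO cells the median of the Hox genes over the same step was 0.15, but none was called for a difference between the genotypes' steps. Of 19 retinoic acid response genes Stra8 alone fell. Crabp2, which carries retinoic acid to the nucleus, was at 98.9 and 144 CPM on day 3 against 49.6 and 69.1 CPM on day 4 (log2 change -1.03 ± 0.26 SE, adjusted p = 0.0703). Cyp26b1, which degrades it, was at 416 and 304 CPM on day 3 against 152 and 263 CPM on day 4 (log2 change -0.79 ± 0.77 SE, adjusted p = 0.598).

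Other falls among named genes were of diverse kinds. Pou2f2, a POU factor, was at 2.86 and 7.99 CPM on day 3 against 0.539 and 1.29 CPM on day 4 (log2 change -2.54 ± 0.50 SE, adjusted p = 0.0322). The connexin gene Gjb2 was at 6.47 and 16.9 CPM on day 3 against 1.8 and 2.72 CPM on day 4 (log2 change -2.36 ± 0.51 SE, adjusted p = 0.0462). Plekhb1 was at 15.98 and 19.7 CPM on day 3 against 7.36 and 9.23 CPM on day 4 (log2 change -1.10 ± 0.18 SE, adjusted p = 0.0158). Pdk3, a pyruvate dehydrogenase kinase, was at 69.8 and 74.97 CPM on day 3 against 38.6 and 42.5 CPM on day 4 (log2 change -0.84 ± 0.14 SE, adjusted p = 0.0182). For Plekhb1 and Pdk3 the libraries of a day lay close together, whereas for Pou2f2 and Gjb2 day 3 replicate 2 held more than the other day 3 library, and without it the changes were -1.59 and -1.49. Alppl2, an alkaline phosphatase of the early embryo, fell by 1.74 ± 0.34 on the log2 scale, and the neuronal cell adhesion gene Nfasc fell by 1.72 ± 0.35, with a change of -1.14 without day 3 replicate 2.

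Cell growth lists held small or unsteady differences. Of 60 cytosolic ribosomal protein genes 58 were lower, as were 8581 of all 17694 genes tested. Without overlap 49 were lower (22.1% of all genes tested were). Their median was -0.23, and none passed the test. They summed to 52135 and 51122 CPM on day 3 and then 45428 and 44063 CPM at day 4. None of 28 replication genes and none of 21 mitosis genes passed, with medians of -0.25 (-0.34 to -0.14 with single libraries left out) and 0.06 (-0.06 to 0.18). In the list of the unfolded protein and integrated stress responses none of 28 passed either. Its median was -0.46, and -0.05 without day 3 replicate 2, the library in which these genes were high.

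Exon length moved with the step. In 5 equal bins of 17107 genes by annotated exon length, from a median of 1048 bp to one of 9305 bp, the median log2 change was -0.20, -0.06, 0.00, 0.08 and 0.21. The same bins gave -0.16, -0.06, -0.02, 0.03 and 0.13 for this step in KO cells. The median length was 5926 bp for risen genes, 2426.5 bp for fallen genes and 3850 bp for all tested. Ribosomal protein genes are short and laminin, collagen and endocytic receptor genes are long, and the part of length in these results was not tested.

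Markers of other tissues differed in level. Those of smooth muscle summed to 2281 and 992 CPM on day 3 and then 4584 and 1583 CPM, and those of fibroblasts are given above. Sums for trophoblast were 74.1 and 25.6 then 86.3 and 72.8 CPM, for streak and definitive endoderm 36.1 and 14.1 then 67.3 and 36.7 CPM, and for neural cells 56.1 and 82.6 then 79.3 and 55.8 CPM. Those of the heart, of endothelium and blood and of mesothelium lay between 9.49 and 46.3 CPM in each library. Their part in the results was not tested. At least 1 of the 4 libraries reached 1 CPM for 5 of 6 streak, 5 of 6 heart and 5 of 6 neural markers. The same held for 3 of 6 markers of endothelium and blood and 2 of 4 of trophoblast. The rest of these lists stayed under 1 CPM in all 4 libraries. They were the streak gene T, Tbx5 of the heart, Tal1, Gata1 and Hbb-bh1 (at 0) of blood, Neurog2 of the nervous system and Elf5 and Cdx2 of trophoblast. The summed markers of XEN and primitive endoderm were 745 and 619 CPM on day 3 and then 1511 and 1450.2 CPM at day 4, those of visceral endoderm 1402 and 1343 then 4113 and 3978 CPM, and those of parietal endoderm 4142 and 4197 then 9787 and 8575 CPM. The 5 pluripotency markers summed to 364 and 946 CPM and later 176 and 346 CPM, so stem cell transcripts were still present at day 4.

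The same step in KO cells bears on whether it depends on AGO2. Ago2 itself was at 307 and 186 CPM on day 3 against 514 and 581 CPM on day 4 in WT cells (log2 change 1.15 ± 0.29 SE, adjusted p = 0.069) and at 77.4 and 122 CPM on day 3 against 109 and 148 CPM on day 4 in KO cells. No gene was called for a difference between the WT and KO steps (0%, smallest adjusted p 0.114), with 1309 genes at an unadjusted p below 0.05 and 58 calls with DESeq2. Without WT day 3 replicate 1 there were 497 calls and without KO day 3 replicate 2 there were 50. The KO step held 62 calls of its own (0.35%). KO list medians had the WT sign for primitive endoderm regulators (0.11), visceral endoderm (0.10), parietal endoderm (0.69) and lysosomal genes (0.28). So did those of naive pluripotency (-1.81) and two-cell-like genes (-0.92). The sign was the other one for cholesterol (-0.12), Hox (0.15) and formative epiblast genes (-1.12), among others.

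Of the 141 genes risen in WT cells, 118 had a positive change in KO cells (83.7%, against 49.5% of all genes tested), with a KO median of 0.38 where the WT median was 1.20. Of the 75 fallen genes 70 had a negative KO change (93.3%, against 50.5%), with a KO median of -0.77 where the WT median was -1.33. The genes were chosen by their WT change, so the pair of medians is no test of a difference between genotypes. Lrp2 had a KO change of -0.47 ± 0.26 and a difference of 1.95 ± 0.37 (SE, adjusted p = 0.257). Gata4 and Col4a1 had KO changes of 1.04 ± 0.23 and 1.28 ± 0.28, close to the WT values. Dab2 had a KO change of 0.05 ± 0.22 with a difference of 1.17 ± 0.31 (SE, adjusted p = 0.335), and Dnmt3b one of -0.57 ± 0.19 with a difference of 1.41 ± 0.27 (SE, adjusted p = 0.257).

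**Figure D5:**
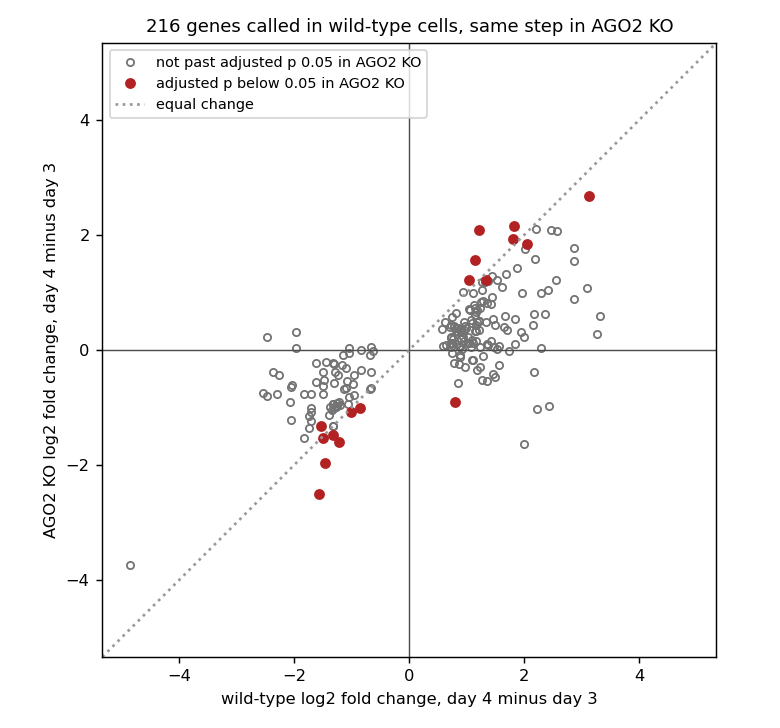
Log2 change from day 3 to day 4 in WT cells (horizontal axis) and in KO cells (vertical axis) for the 216 genes called in WT cells, with filled points for genes also called in KO cells and a dotted line at equal change. Most points share the sign of the WT change, and 118 of the 141 to the right of 0 are positive in KO cells.

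The step also differed from the first one of the course, day 1 to day 2, which shares none of its libraries. A difference between the steps was called for 1334 genes (7.54%). The later change was the higher one for 430 (2.43%) and the lower one for 904 (5.11%). The count was 496 without day 2 replicate 2, 708 and 676 without day 1 replicate 1 or 2, and 856 and 735 without day 4 replicate 1 or 2. Of the 141 risen genes 35 differed so, and of the 75 fallen genes 48, but they were chosen by the later change, which is one term of the difference, so nothing is read from these shares. The two-cell-like genes turned direction. Zscan4d had risen from 9.45 and 17.9 CPM at day 1 to 106 and 128 CPM at day 2 (log2 change 3.10 ± 0.26 SE, adjusted p = 1.57e-05), and its change differed between the steps by -4.81 ± 0.36 (SE, adjusted p = 1.77e-05). Hoxb8 had gone from 7.61 and 8.96 to 13.7 and 24.6 CPM (log2 change 1.21 ± 0.35 SE, adjusted p = 0.0255), with a difference of -3.47 ± 0.51 (SE, adjusted p = 0.00105). Gata4 and Lrp2 had early changes of 1.54 ± 0.22 (SE, adjusted p = 3.70e-04) and 0.64 ± 0.26 (SE, adjusted p = 0.0943), and the difference between the steps was called for neither, at -0.28 ± 0.30 (SE, adjusted p = 0.628) and 0.84 ± 0.36 (SE, adjusted p = 0.177). Hnf4a had an early change of -0.97 ± 0.30 (SE, adjusted p = 0.0349) and a difference of 2.53 ± 0.43 (SE, adjusted p = 0.00246).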

How the data were processed

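Polyadenylated RNA of differentiating mouse embryonic stem cells was measured by RNA sequencing. The deposited values are raw counts per gene symbol for 30590 genes. Per the submitters' processing notes, reads were aligned to mm10 with STAR 2.5.0c and counted with featureCounts 1.4.5-p1. Which annotation was used, and whether counting used strand, is not given in the sources used here, so antisense, overlapping and near-identical genes are uncertain. The labels give no batch that separates the days.

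The 16 libraries of the WT and KO course entered 1 edgeR 4.0.16 quasi-likelihood fit of 8 groups (R 4.3.3), with TMM scaling and edgeR's filter on low counts, which left 17694 genes. P-values were adjusted by the Benjamini-Hochberg method over all 17694, with a threshold of 0.05. SE is derived from the test's F statistic. CPM is relative to TMM-scaled library sizes. Replicates differed by more than sampling noise (chi-square per degree of freedom 38.4 at day 3 and 16.2 at day 4). DESeq2 1.42.0, other filters and scalings, other sets of libraries, a replicate block and leaving out each library were the alternatives.

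The comparison and the 38 gene lists were chosen with earlier results of these data known. Genes were named by rule: 11 markers, the called genes with the largest changes (up to 15 per direction, reaching a 5 CPM mean, days not overlapping), up to 10 per direction with the smallest p, and the 4 smallest p of each list, 191 in all. Genes named outside it were chosen after their values were seen. Besides those said so in the text, these are Acta2, Afp, Amn, Apob, Col3a1, Ctsb, Cyp26b1, Gata5, Krt18, Krt8, Lama1, Lamc1, Nid2, Sall4, Ttr and the marker genes of other tissues. Genome positions are from GENCODE M21 and promoter sequences from RefSeq, both on the GRCm38 assembly that mm10 names, and alignment used Biopython 1.88. Some list members are not reported here.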

Additional observations from a re-analysis of the deposited data

Results flagged for a closer look

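Among genes named as markers, for the largest changes or for the smallest p, 23 differed between the last step and the first. For these the change from day 3 to day 4 differed from that from day 1 to day 2 at an adjusted p below 0.05 (edgeR test of the difference between the steps, adjusted over 17694 genes, of which 7.54% differed so). Apart from the markers Sox7 and Ago2, the 23 were named for their later change, which is one term of the difference. Nothing is therefore read from their number against that share. Genes named from the lists alone or after their values were seen are not in this count, though Zscan4f and Hnf4a also passed this test. The differences below are the later log2 change minus the earlier one, from 2 libraries per day.

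The lowest values came from genes that had risen early. Usp17lb differed by -5.42, Zscan4d by -4.81, Usp17la by -4.64 and Zscan4c by -4.25, each with an early change of 2.81 to 3.13. Hoxb5os differed by -4.68, Hoxb8 by -3.47 and Hoxb6 by -3.004, with early changes of 2.20, 1.21 and 1.033. Gjb2 differed by -3.22, Nfasc by -2.52, Alppl2 by -2.07, Tuba3a, a tubulin, by -1.57, Mael by -1.32, Pdk3 by -1.18 and Plekhb1 by -0.986, all lower at the later step. Sox7 differed by -1.47 and Slc40a1 by -0.924, since both had larger early changes (2.14 and 2.03) than late ones.

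On the other side, Atp6v0a1 differed by 0.845, Cdc42bpg, a kinase that acts downstream of CDC42, by 1.56 and Ago2 by 1.81, Ago2 having gone from an early change of -0.66 to a late one of 1.15. Fam83e differed by 2.28, Abcc2 by 2.63, Ryr2 by 2.98 and Syne3 by 3.54, with early changes between -1.12 and 0.00.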

How the results depend on the processing

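With 2 libraries per day, precision is limited by their number and by the spread at day 3, at depths of 10601574 to 14157310 counts per library. The number of calls changed with the setting. The signs of the 216 called genes could not turn when a library was left out, since their days do not overlap. The cause of these shifts was not tested.

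For day 4 against day 3, where 141 genes were higher and 75 lower, the DESeq2 Wald test called 930 genes (557 higher, 373 lower) and the fit without a filter on low counts 1833 (1134 and 699). A test against a 2-fold change and a fit of the compared libraries alone each called 0 (0 and 0), and the 8 WT libraries alone gave 5 (5 and 0). Leaving out single libraries gave 0 to 2272 calls (0 to 1361 higher, 0 to 911 lower).

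For the difference from the KO step, with 0 calls, DESeq2 gave 58 (52 higher, 6 lower) and no filter 390 (272 and 118). Leaving out single libraries gave 0 to 497 (0 to 374 higher, 0 to 123 lower).

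For the difference from the day 1 to 2 step, with 1334 calls, DESeq2 called 677 genes higher, no filter 2454 (1010 higher, 1444 lower) and the 2-fold test 344 (26 and 318). Leaving out single libraries gave 496 to 1660 calls (84 to 662 higher, 412 to 1111 lower).

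The replicate numbers gave no steady sign of pairing. Deviations of same-numbered WT libraries correlated between -0.221 and 0.142 over 6 pairs of days, and those of KO libraries between -0.287 and 0.483. Such correlations cannot show that the libraries are unpaired. With a replicate block 123 genes were called for day 4 against day 3 (79 higher, 44 lower), and 272 higher for the difference from the day 1 to 2 step.

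Recomputed list medians stayed within the spread between replicates in 257 cases and moved in 9, and when single libraries were left out 135 stayed and 17 moved. Among named genes 3 signs turned, without day 3 replicate 2, none of them called: Ndufs1 ranged from -0.84 to 0.054, Sox1 from -1.79 to 0.16 and Upk3b from -0.078 to 0.88.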

Other observations

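By chromosome, 13 of 675 genes tested on chromosome 15 and 9 of 782 on chromosome 10 were among the 141 risen (0.797% of all genes tested), and none there fell. The 75 fallen genes (0.424%) included 12 of 1300 on chromosome 7, which holds the Zscan4 cluster, and 11 of 1411 on chromosome 11, which holds the Hoxb cluster. Of 589 genes tested on chromosome 12, 8 rose and 7 fell, and of 669 on the X chromosome 10 rose and 5 fell. The chromosomes were singled out after their counts were seen, and no test was made.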
